A study of Homo sapiens with 16 samples.

Results

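A set of 9 secreted or cell-surface factors linked to blood vessel growth and to low oxygen was followed here: the vascular endothelial growth factor (VEGF) family ligands VEGFA, VEGFB, VEGFC and PGF, the lipid and vessel regulator ANGPTL4, the peptide hormone ADM, the stanniocalcins STC1 and STC2, and the VEGF co-receptor NRP1. They were listed by name, by a rule that used no measured value, although earlier results of these data were known when the list was made. All 9 were listed in both tables, out of 13559 genes in the untreated experiment and 14024 in the inhibitor experiment.

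The study grew LN229, an established human glioblastoma cell line, either in regular culture or in an ischemic culture that combined low glucose, glutamine and serum with low oxygen, and measured mRNA by RNA sequencing. In the untreated experiment, 2 regular libraries were set against 2 ischemic libraries. In the inhibitor experiment, both cultures received the solvent DMSO, VX745, which inhibits the stress kinase p38α, or MK25, which inhibits its target kinase MK2, with 2 libraries in each of the 6 groups. No gene was altered in the groups compared, and inhibitor doses and culture times were not among the labels used. The question was how the ischemic condition changes expression and how far the p38 to MK2 kinase pathway takes part in it. All 16 libraries came from 1 cell line, so other glioblastoma cells are not represented, and nothing in the labels says whether the 2 libraries of a group came from separate cultures. The p-values therefore measure the spread between these libraries, which may be technical. Because RNA was taken from whole cultures, less RNA per cell cannot be told apart from fewer cells of a kind.

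VEGF ligands are released by cells short of oxygen and bind receptor tyrosine kinases on endothelial cells, with neuropilins such as NRP1 acting as co-receptors that strengthen the signal. The transcription factor HIF-1 is stabilised at low oxygen and binds short elements beside many of its targets, among which VEGFA, ANGPTL4 and ADM are textbook examples. Around necrosis in glioblastoma, tumor cells that lack oxygen are a known source of VEGFA.

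Depth was 22346073 to 28373993 reads on listed genes per library in the untreated experiment and 20122017 to 37562668 in the inhibitor experiment. Values are log2 CPM, that is, read counts scaled to library size and logged. Of 8 glioma and astroglial markers, 7 were listed, led by VIM in every group, while GFAP lay between 0.709 and 2.01 CPM and CHI3L1 was not listed. Of 8 endothelial markers, ESAM was listed in both experiments and TIE1 in the inhibitor experiment, with summed levels of 2.36 to 8.06 CPM over all groups, and PECAM1, CDH5 and VWF were not listed. Of 5 blood cell markers, only CD68 was listed, at 22.1 to 64.3 CPM, and PTPRC was not.

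A comparison of ischemic with regular culture was called where limma's moderated test gave a Benjamini-Hochberg adjusted p below 0.05 and the change was at least 2-fold. In untreated cells, 6 of the 9 factors were called higher, and PGF was called lower. Over all genes tested, 11.3% were called higher and 9.1% lower. The median log2 fold change of the 9 factors was 4.29, beside -0.01 for all genes. ANGPTL4 ranked 2 of 13559 genes by log2 fold change, STC1 ranked 22, ADM ranked 28, VEGFA ranked 31 and STC2 ranked 58. Together the 9 factors took 0.0436% and 0.0451% of the reads in the 2 regular libraries and 0.371% and 0.425% in the 2 ischemic libraries.

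Marker lists of cell types moved with the culture as well. In untreated cells the summed glioma and astroglial markers were at 4520 to 4575 CPM in regular and 8163 to 8315 CPM in ischemic libraries. The list went both ways, since VIM rose by 1.38 and EGFR by 1.17, while SOX2 fell by 3.11 and NES fell by 1.37 on the log2 scale. VIM, at 2590 to 6994 CPM over these libraries, led the sum, whereas SOX2 was at 8.66 to 88.9 CPM. CD68 was at 22.1 to 23.2 CPM in regular and 36.1 to 41.3 CPM in ischemic libraries, a log2 fold change of 0.77 (adjusted p = 1.23e-05), and with DMSO at 30.2 to 33.4 and 60.6 to 61.3 CPM. The part of these markers in the changes of the factors was not tested.

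**Figure D1:**
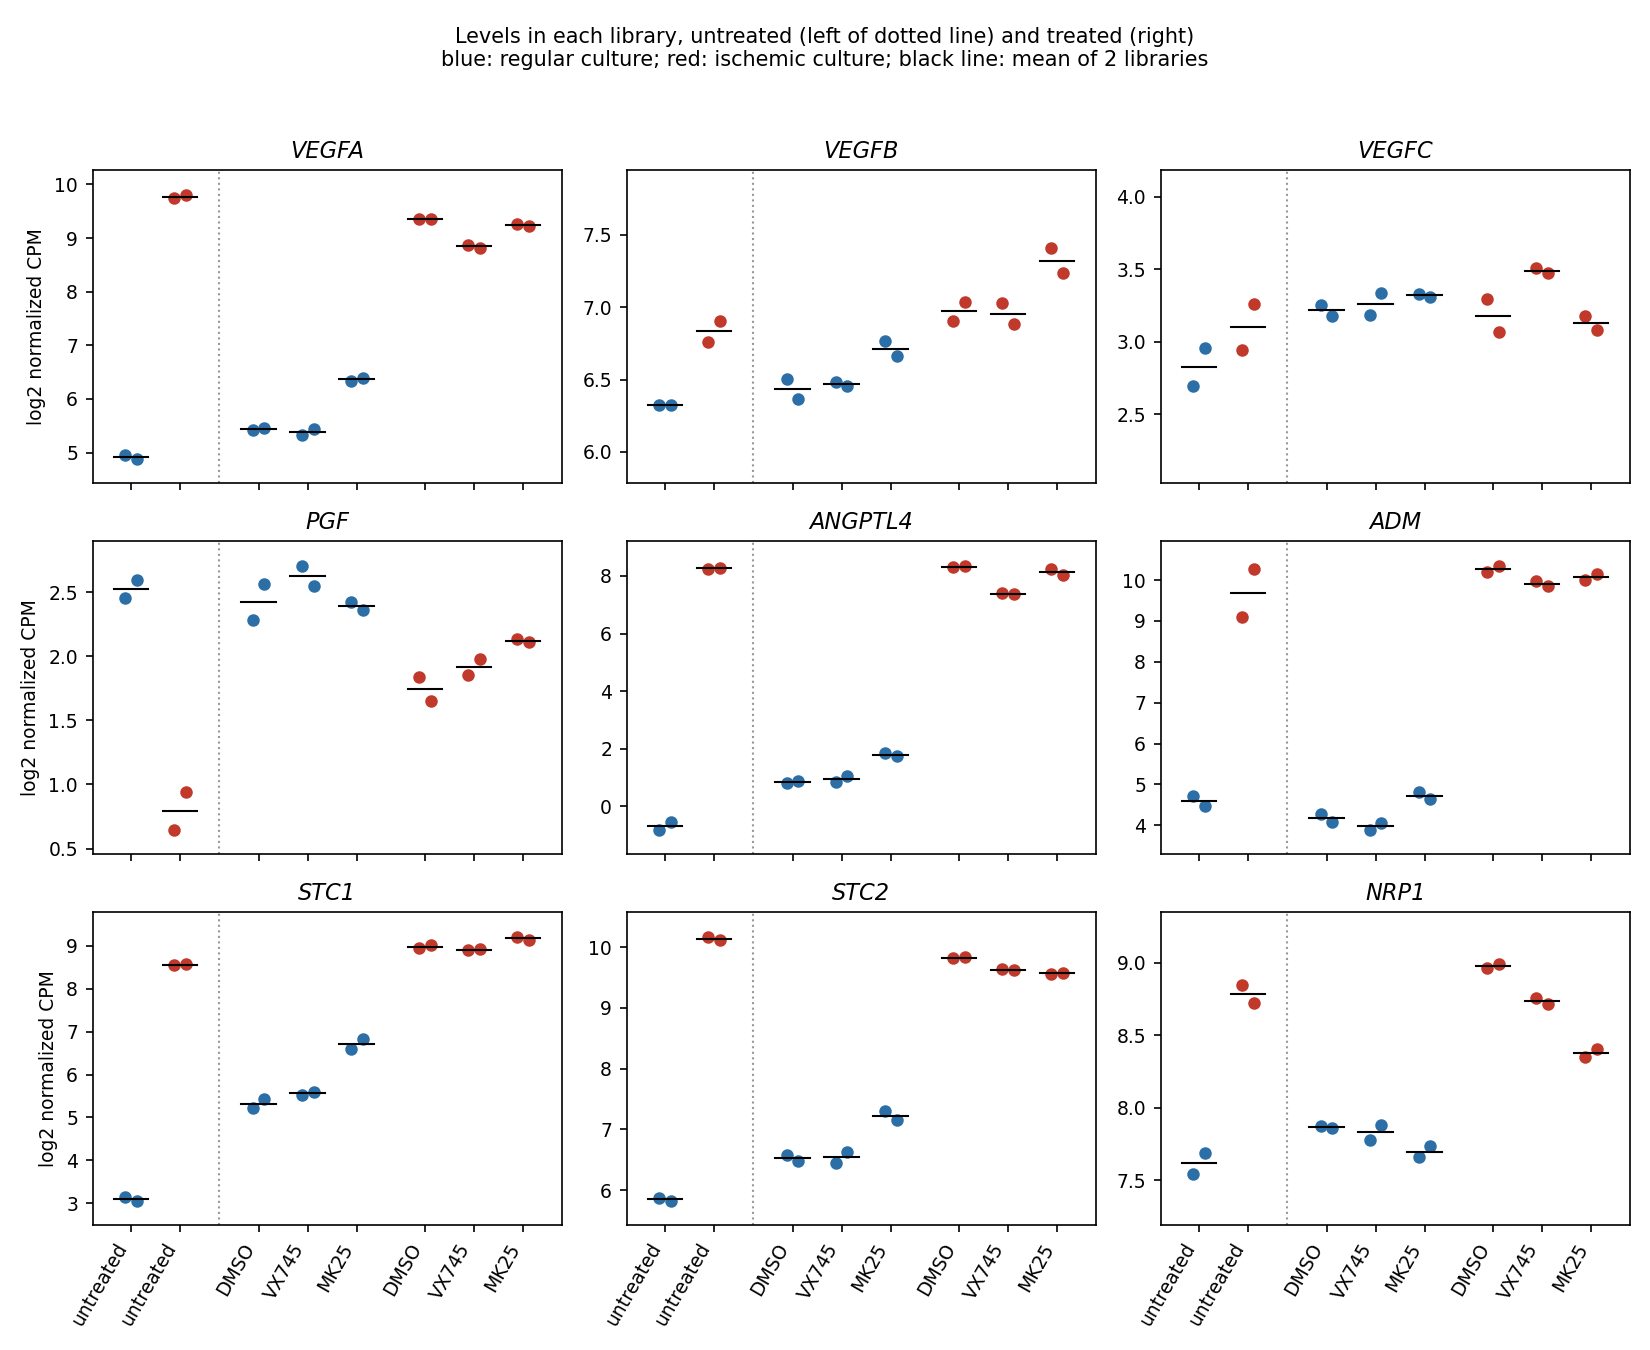
Level of each factor in every library, as log2 normalized CPM on the vertical axis, by treatment on the horizontal axis. Points are libraries, black lines are group means, blue is regular culture and red is ischemic culture, and the vertical range differs between panels. VEGFA, ANGPTL4, ADM, STC1, STC2, NRP1 and, by less, VEGFB sit higher in every ischemic library than in any regular library of the same experiment, PGF sits lower, and VEGFC overlaps.

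VEGFA, the main ligand of the endothelial receptor KDR (chr6:43770211-43786487, GRCh38.p14), stood at 4.95 and 4.89 in the regular libraries and at 9.74 and 9.80 in the ischemic libraries. The groups lay far apart, with little spread within either one. The log2 fold change was 4.85 (SE 0.07, adjusted p = 6.03e-14), or 28.8-fold.

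ANGPTL4, a secreted inhibitor of lipoprotein lipase that also acts on vessel walls (chr19:8364155-8374370), was scarce in regular culture. It had 12 and 17 reads in the regular libraries, at log2 values of -0.82 and -0.54, and 8425 and 6622 reads in the ischemic libraries, at 8.25 and 8.29. The log2 fold change of 8.95 (SE 0.12, adjusted p = 6.03e-14) corresponded to 494-fold, a ratio whose lower term rests on these few reads.

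ADM encodes adrenomedullin, a peptide that widens vessels (chr11:10305073-10307397). It stood at 4.71 and 4.46 in regular culture and at 9.10 and 10.27 in ischemic culture. The ischemic libraries did not reach into the regular range, but they differed from each other by more than those of any other factor. The log2 fold change was 5.10 (SE 0.25, adjusted p = 3.54e-09). Leaving out 1 library at a time, it lay between 4.52 and 5.68.

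The stanniocalcins are secreted glycoproteins named for a hormone of fish calcium balance. STC1 (chr8:23841929-23854806) was at 3.14 and 3.06 in regular libraries and at 8.56 and 8.57 in ischemic libraries, a log2 fold change of 5.46 (SE 0.07, adjusted p = 6.03e-14). STC2 (chr5:173314723-173328414) was at 5.88 and 5.83 in regular libraries and at 10.16 and 10.12 in ischemic libraries, a log2 fold change of 4.29 (SE 0.06, adjusted p = 1.6e-13). Both rose with no overlap between cultures. Per length of transcript, STC2 exceeded STC1 by a ratio of 6.1 and 6.24 in the regular libraries and of 2.76 and 2.66 in the ischemic libraries, so the gap between the paralogs was narrower in ischemic culture.

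NRP1, a co-receptor for VEGFA and for class 3 semaphorins (chr10:33177493-33334667), rose by less. It stood at 7.54 and 7.69 in the regular libraries and at 8.85 and 8.72 in the ischemic libraries, which did not overlap. The log2 fold change was 1.17 (SE 0.07, adjusted p = 3.82e-08).

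The other VEGF ligands behaved differently from VEGFA. VEGFB, a ligand of FLT1 (chr11:64234584-64239264), stood at 6.33 and 6.32 against 6.76 and 6.90, a log2 fold change of 0.51 (SE 0.07, adjusted p = 4.86e-05) that is below 2-fold. VEGFC, which acts mainly on lymphatic vessels (chr4:176683538-176792922), stood at 2.70 and 2.95 against 2.94 and 3.26. Its groups overlapped, with a log2 fold change of 0.28 (95% confidence interval -0.06 to 0.61, adjusted p = 0.128). PGF, placental growth factor and also a ligand of FLT1 (chr14:74941830-74955764), fell from 2.45 and 2.59 to 0.65 and 0.94, a log2 fold change of -1.73 (SE 0.20, adjusted p = 6.26e-06).

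Levels can be compared between genes only per length, here as CPM per kilobase of the reference (MANE) transcript. In untreated regular culture the order was VEGFB at 44.3, NRP1 at 34.8, ADM at 16.1, STC2 at 13.6, VEGFA at 8.37, PGF at 3.26, VEGFC at 3.12, STC1 at 2.20 and ANGPTL4 at 0.292. PGF and VEGFC overlapped in that order, and every other pair of neighbours was apart in all libraries. In untreated ischemic culture ADM led at 598 ± 324 (SD, n = 2), followed by STC2 at 265, VEGFA at 242, ANGPTL4 at 165 and STC1 at 97.9, with NRP1 at 78.2, VEGFB at 63.2, VEGFC at 3.79 and PGF at 0.956. No neighbours in the ischemic order overlapped. Among the 4 VEGF family ligands alone, VEGFB made up 75.0% ± 0.5 (SD, n = 2) of their summed level per length in regular culture and VEGFA 14.2% ± 0.51. In ischemic culture VEGFA made up 78.1% ± 0.77 and VEGFB 20.4% ± 0.59, so the leading VEGF ligand differed between the cultures.

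**Figure D2:**
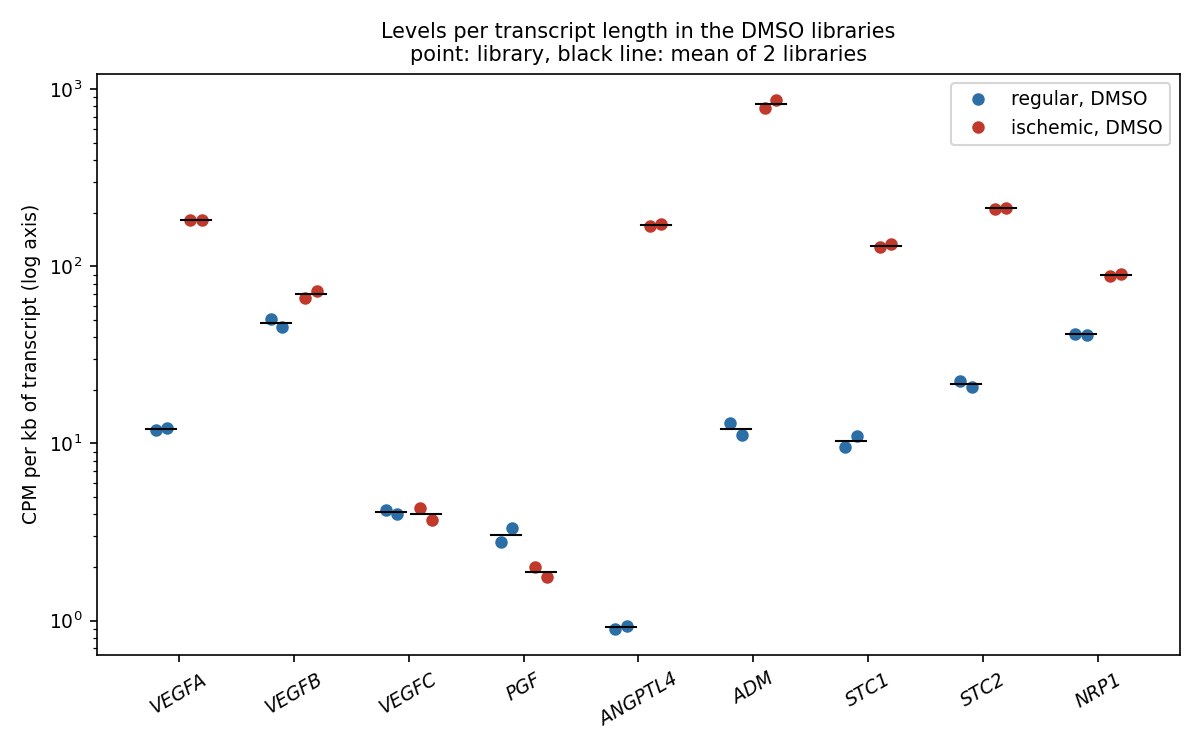
Levels per transcript length of the 9 factors in the DMSO libraries of the inhibitor experiment, in CPM per kilobase on a log axis. Points are libraries and black lines are means of 2 libraries. In regular culture VEGFB lies highest at 47.9 and ANGPTL4 lowest at 0.915, and in ischemic culture ADM lies highest at 829 and PGF lowest at 1.89.

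The DMSO arm of the inhibitor experiment gave a second set of libraries for the same contrast, normalized apart from the first. The same 6 factors were called higher there, against 9.03% of all genes. The median log2 fold change was 3.30 for the 9 factors and -0.01 for all genes. ADM was at 4.29 and 4.07 in regular DMSO libraries and at 10.20 and 10.34 in ischemic DMSO libraries, a log2 fold change of 6.09 (SE 0.08, adjusted p = 2.03e-19). Here its libraries lay close together, unlike the untreated ischemic pair. ANGPTL4 rose from 0.81 and 0.86 to 8.31 and 8.34, by a log2 fold change of 7.49 (SE 0.09, adjusted p = 3.5e-20). VEGFA rose from 5.42 and 5.47 to 9.36 and 9.36, by 3.92 on the log2 scale (SE 0.05, adjusted p = 2.03e-19).

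STC1 stood at 5.21 and 5.42 in the regular DMSO libraries and at 8.95 and 9.01 in the ischemic ones, and its log2 fold change was 3.67 (SE 0.07, adjusted p = 3.79e-17). STC2 stood at 6.58 and 6.48 against 9.82 and 9.84, a log2 fold change of 3.30 (SE 0.07, adjusted p = 2.95e-17). The regular DMSO levels of both stanniocalcins lay above those of the untreated regular libraries, and since the tables were normalized separately that difference was not tested. NRP1 stood at 7.87 and 7.86 against 8.96 and 8.99, a log2 fold change of 1.11 (SE 0.05, adjusted p = 5.91e-12), which came to 0.84 under quantile normalization, below 2-fold.

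PGF, called lower in untreated cells, stood at 2.28 and 2.56 in regular DMSO and at 1.84 and 1.65 in ischemic DMSO libraries. It was lower by 0.68 on the log2 scale (SE 0.15, adjusted p = 0.000579), which does not reach 2-fold. VEGFB differed by 0.54 (SE 0.07, adjusted p = 4.43e-06) and VEGFC by -0.04 (95% confidence interval -0.27 to 0.19, adjusted p = 0.768), and neither was called. Per length, VEGFA made up 18.0% of the VEGF ligand level in regular DMSO and 70.7% in ischemic DMSO libraries, and VEGFB 71.4% and 27.0%.

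**Figure D3:**
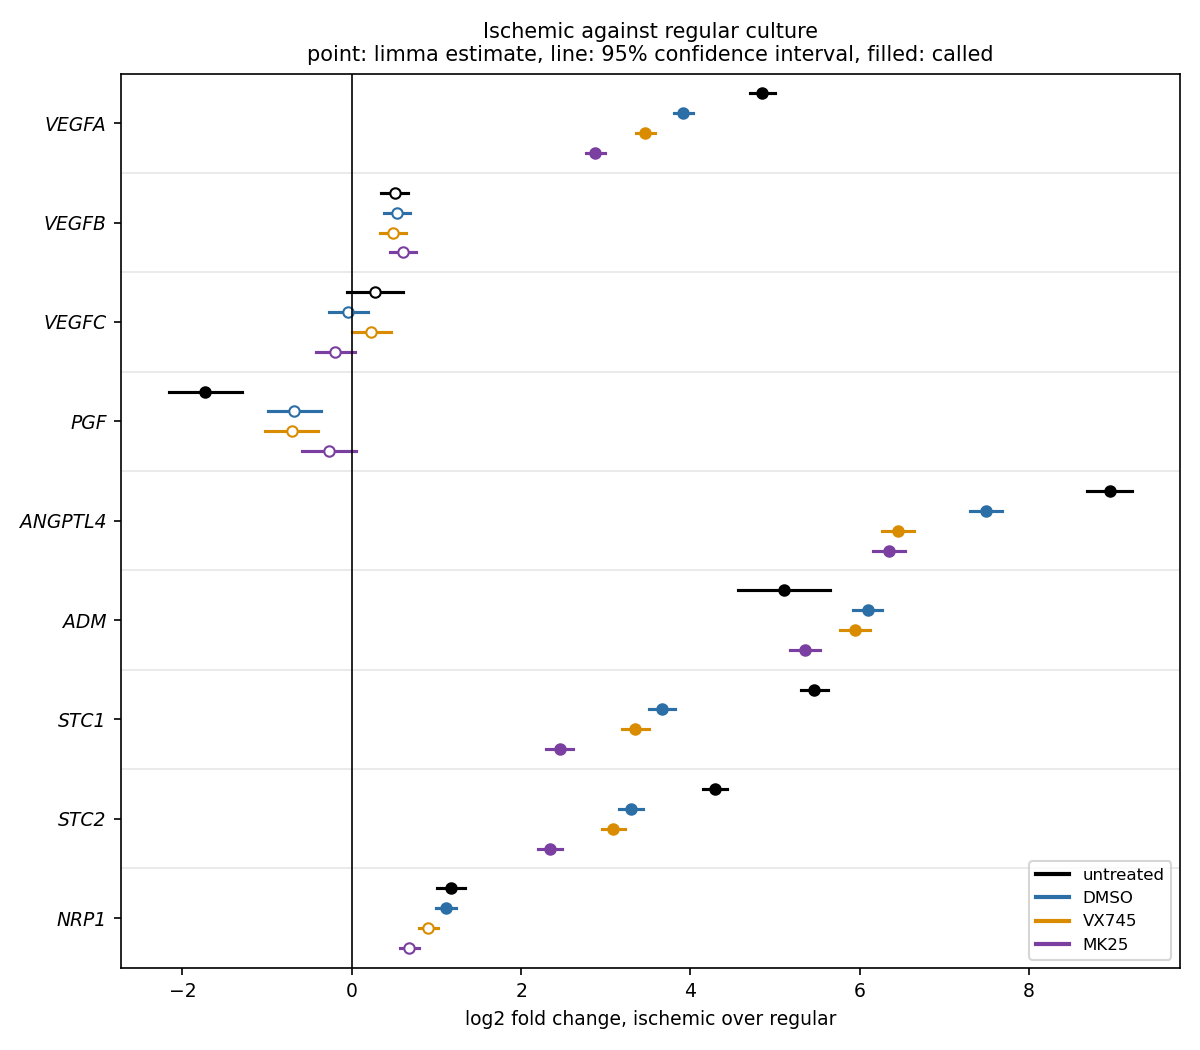
Log2 fold change of ischemic over regular culture for each factor, in untreated cells and in cells given DMSO, VX745 or MK25. Points are limma estimates, lines are 95% confidence intervals and filled points were called. From DMSO to MK25 the change of VEGFA narrows from 3.92 to 2.88 and that of STC1 from 3.67 to 2.45, while VEGFB stays between 0.49 and 0.61.

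The stretches before and after the start of a gene are shown for ANGPTL4, ADM and STC2, which rose together, and for VEGFB, which did not reach 2-fold. The core of the HIF-binding element is written ACGTG or GCGTG, and capitals mark each match on either strand. The sequences run 5′ to 3′ on the strand of the gene, from 250 bases before the start to 50 after it, and come from RefSeq on GRCh38.p14. Promoter windows of 6 of the 9 factors were matched by symbol. No window was found for VEGFA, STC1 and NRP1, so these were not scanned.

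ANGPTL4, plus strand, chr19:8363905-8364204: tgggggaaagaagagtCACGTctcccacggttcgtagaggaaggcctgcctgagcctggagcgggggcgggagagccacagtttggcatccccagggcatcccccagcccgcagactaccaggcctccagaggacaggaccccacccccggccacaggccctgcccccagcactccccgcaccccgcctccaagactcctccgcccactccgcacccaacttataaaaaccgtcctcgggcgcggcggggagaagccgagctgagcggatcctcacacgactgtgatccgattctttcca
ADM, plus strand, chr11:10304823-10305122: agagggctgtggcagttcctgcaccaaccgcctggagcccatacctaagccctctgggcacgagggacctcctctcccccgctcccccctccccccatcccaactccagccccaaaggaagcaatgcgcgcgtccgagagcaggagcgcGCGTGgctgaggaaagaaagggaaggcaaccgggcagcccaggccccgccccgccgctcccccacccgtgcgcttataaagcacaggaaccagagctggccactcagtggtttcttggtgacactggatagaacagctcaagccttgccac
STC2, minus strand, chr5:173328365-173328664: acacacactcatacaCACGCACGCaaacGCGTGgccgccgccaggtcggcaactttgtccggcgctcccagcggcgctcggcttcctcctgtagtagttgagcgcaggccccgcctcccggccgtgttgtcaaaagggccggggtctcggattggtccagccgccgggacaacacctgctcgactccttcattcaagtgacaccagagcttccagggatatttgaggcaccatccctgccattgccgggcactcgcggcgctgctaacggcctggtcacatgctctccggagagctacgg
VEGFB, plus strand, chr11:64234334-64234633: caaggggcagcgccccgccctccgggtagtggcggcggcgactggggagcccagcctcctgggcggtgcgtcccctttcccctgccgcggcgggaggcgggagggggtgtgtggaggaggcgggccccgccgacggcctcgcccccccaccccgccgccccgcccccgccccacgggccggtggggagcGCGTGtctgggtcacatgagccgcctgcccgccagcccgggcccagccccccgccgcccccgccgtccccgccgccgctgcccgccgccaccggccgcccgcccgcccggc

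ANGPTL4 held 1 match to ACGTG, read on the strand opposite to the gene and 234 bases before the start. ADM held 1 match to GCGTG, 101 bases before the start. STC2 held 3 matches to GCGTG, between 235 and 222 bases before the start, and neighbours that share a base are printed as 1 run of capitals. VEGFB held 1 match to GCGTG, 61 bases before the start, and VEGFC and PGF held GCGTG matches as well. Of 35116 promoter windows of the same length, 21.4% held ACGTG, 36.5% held GCGTG and 48.4% held either, so a match is common. Every window scanned for the factors held a match, and VEGFA, STC1 and NRP1 had no window to scan. The windows therefore cannot separate the factors called higher from those that were not.

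For the inhibitors, a change against DMSO was called at an adjusted p below 0.05 and at least 1.5-fold. In ischemic culture, VX745 lowered 1 of the 9 factors by this rule, ANGPTL4, against 0.906% of all genes called lower. ANGPTL4 stood at 8.31 and 8.34 in the DMSO libraries and at 7.41 and 7.37 in the VX745 libraries. The groups were apart by far more than their spread. The log2 fold change was -0.94 (SE 0.09, adjusted p = 1.66e-06), so VX745 libraries held 0.523 of the DMSO level. That level remained far above regular culture, where the VX745 libraries stood at 0.82 and 1.05.

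VEGFA was also lower with VX745 in ischemic culture, at 8.88 and 8.82 against 9.36 and 9.36 with DMSO. The libraries did not overlap, and the log2 fold change of -0.51 (SE 0.05, adjusted p = 4.27e-06) lies below 1.5-fold. ADM stood at 9.98 and 9.85 against 10.20 and 10.34, a log2 fold change of -0.36 (adjusted p = 0.00431). NRP1 differed by -0.24 (adjusted p = 0.00285) and STC2 by -0.20 (adjusted p = 0.0322). VEGFC was higher with VX745, at 3.51 and 3.47 against 3.29 and 3.07, by 0.31 (SE 0.11, adjusted p = 0.0418). In all, 6 of the 9 factors passed the adjusted p alone, where 28.9% of all genes did. STC1 at -0.07 (95% confidence interval -0.23 to 0.09), VEGFB at -0.02 (-0.17 to 0.14) and PGF at 0.17 (-0.14 to 0.49) did not pass it. Under quantile normalization ANGPTL4 and VEGFA still passed, whereas ADM (-0.08, adjusted p = 0.545), NRP1 (-0.07, adjusted p = 0.364) and VEGFC (0.19, adjusted p = 0.217) did not, and the differences of STC1, VEGFB, PGF and STC2 turned sign. ADM also missed the adjusted p without DMSO replicate 2 (0.0584) or VX745 replicate 2 (0.0679), STC2 did so without any 1 of the 4 libraries (0.105 to 0.132), and VEGFC without DMSO replicate 2 (0.301) or either VX745 replicate (0.178 and 0.129).

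MK25 in ischemic culture lowered NRP1 alone among the 9 factors, against 2.65% of all genes called lower. NRP1 stood at 8.96 and 8.99 in the DMSO libraries, at 8.76 and 8.71 in the VX745 libraries and at 8.35 and 8.41 in the MK25 libraries. The 3 treatments did not overlap, with MK25 lowest. The log2 fold change of MK25 over DMSO was -0.60 (SE 0.05, adjusted p = 2.31e-07), just past 1.5-fold. It fell below 1.5-fold, though not above an adjusted p of 0.05, under quantile normalization (-0.40), without DMSO replicate 2 (-0.58) and without MK25 replicate 1 (-0.57).

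VEGFA, ANGPTL4 and ADM, which rose in ischemic culture, were not called with MK25 there. VEGFA stood at 9.26 and 9.23 against 9.36 and 9.36 with DMSO, a log2 fold change of -0.12 (95% confidence interval -0.23 to -0.00, adjusted p = 0.0938) that came to 0.13 under quantile normalization. ANGPTL4 stood at 8.24 and 8.04, a log2 fold change of -0.19 (-0.38 to 0.00, adjusted p = 0.102). ADM differed by -0.20 (-0.37 to -0.02, adjusted p = 0.0669), or by 0.06 under quantile normalization. For each of these factors the MK25 libraries lay below the DMSO libraries without overlap. In a fit of the compared groups alone VEGFA (adjusted p = 0.0368), ANGPTL4 (0.0295) and ADM (0.0191) passed the adjusted p, still within 1.5-fold. By voom ANGPTL4 (0.0185) and ADM (0.0323) passed it, and ADM also did after median centring (0.0483). Smaller than 1.5-fold but past the adjusted p were VEGFB at 0.35 (adjusted p = 0.00118), PGF at 0.38 (adjusted p = 0.0488), STC1 at 0.19 (adjusted p = 0.0486) and STC2 at -0.26 (adjusted p = 0.00455), so that 5 of the 9 passed the adjusted p alone, where 41.7% of all genes did. PGF and STC1 no longer passed it without any 1 of the 4 libraries (log2 fold changes of 0.29 to 0.47 and 0.16 to 0.22). PGF also missed it under quantile normalization (0.20, adjusted p = 0.305), after median centring (0.0544) and on a log2(CPM + 1) scale (0.0501). It did so too by voom (0.0587), with the replicate number as a block (0.0584) and in a fit of the compared groups (0.0699). STC1 missed it without a variance trend (0.141) and after median centring (0.0634). STC2 did not pass under quantile normalization (-0.02, adjusted p = 0.844).

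Set directly against each other in ischemic culture, the inhibitors differed for ANGPTL4, which was higher with MK25 than with VX745 by 0.75 on the log2 scale (SE 0.09, adjusted p = 1.1e-05), where 1.75% of all genes were called higher. VEGFA was higher by 0.40 (adjusted p = 4.68e-05) and NRP1 lower by 0.36 (log2 fold change -0.36, adjusted p = 0.00013), both within 1.5-fold. The doses were not matched by any label, so these values compare the libraries as treated.

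**Figure D4:**
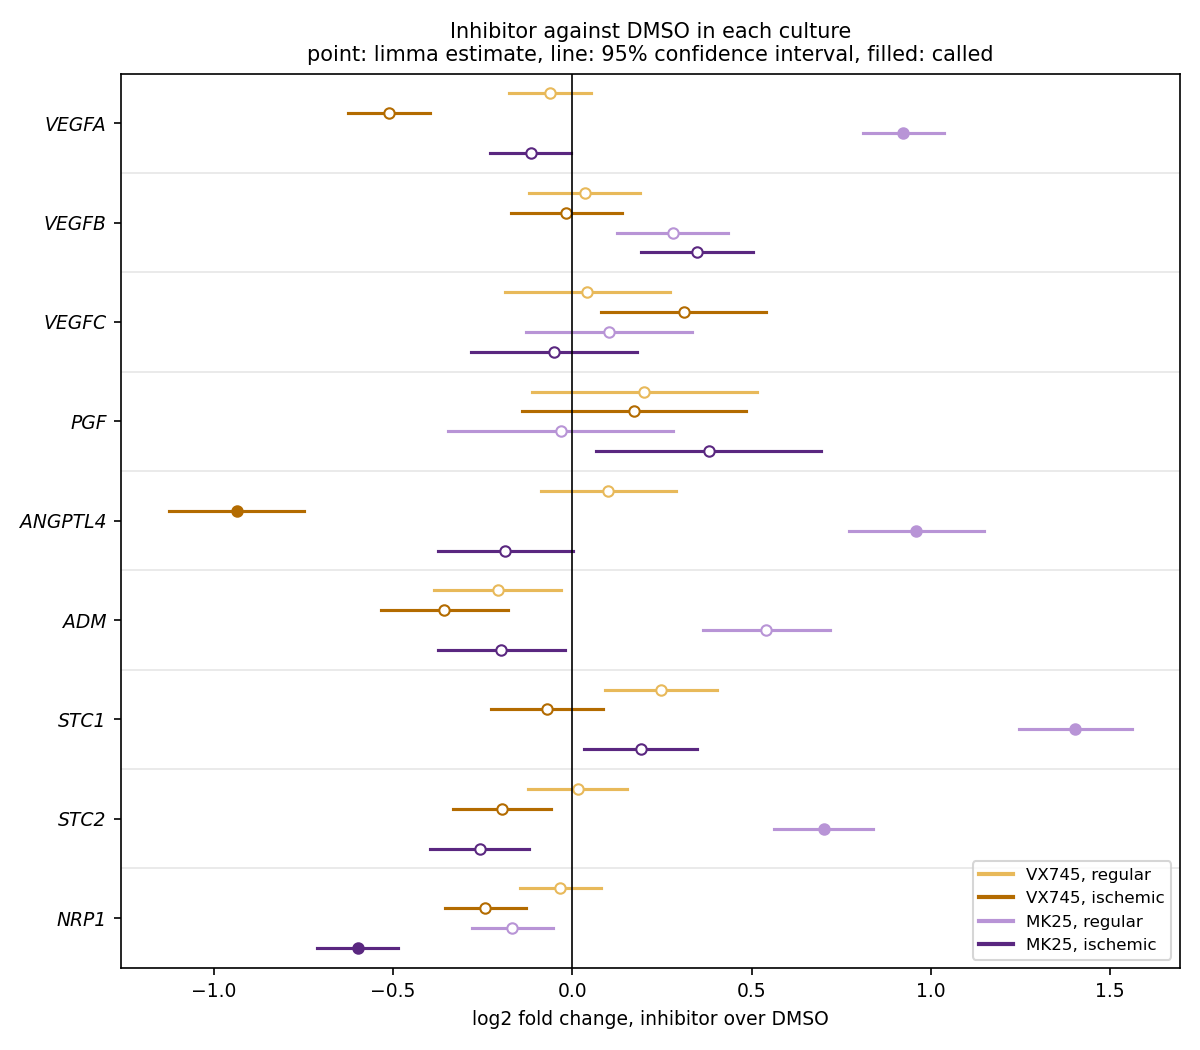
Log2 fold change of VX745 or MK25 over DMSO in regular and in ischemic culture. Points are limma estimates, lines are 95% confidence intervals and filled points were called. MK25 in regular culture moves STC1 by 1.40, ANGPTL4 by 0.96, VEGFA by 0.92 and STC2 by 0.70, and the same factors lie between -0.26 and 0.19 with MK25 in ischemic culture.

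In regular culture VX745 left all 9 factors uncalled. By limma 0 of 9 passed the adjusted p, 2 of 9 (ADM and STC1) had an unadjusted p below 0.05, and voom on reads recovered from the values also called 0. Over all genes 0.0998% were called and 0.335% passed the adjusted p. VEGFA stood at 5.33 and 5.43 with VX745 and at 5.42 and 5.47 with DMSO, an overlap with a log2 fold change of -0.06 (95% confidence interval -0.18 to 0.05). For ANGPTL4 the interval ran from -0.09 to 0.29 and for STC1 from 0.09 to 0.40.

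MK25 in regular culture raised 4 of the 9 factors, against 1.88% of all genes called higher, and the median of the 9 was 0.54 beside 0.00 for all genes. STC1 stood at 5.21 and 5.42 with DMSO and at 6.61 and 6.83 with MK25. The groups were apart, and the log2 fold change of 1.40 (SE 0.07, adjusted p = 3.89e-10) was the largest of the 9. ANGPTL4 stood at 0.81 and 0.86 against 1.84 and 1.74, a log2 fold change of 0.96 (SE 0.09, adjusted p = 9.77e-07) that rests on 43 to 75 reads per library. VEGFA stood at 5.42 and 5.47 against 6.34 and 6.39, a log2 fold change of 0.92 (SE 0.05, adjusted p = 1.68e-09). STC2 stood at 6.58 and 6.48 against 7.31 and 7.15, a log2 fold change of 0.70 (SE 0.07, adjusted p = 1.01e-06). All 4 were also called higher in untreated ischemic culture, a comparison that shares no library with this one.

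ADM stood at 4.81 and 4.63 with MK25 in regular culture, higher than with DMSO by 0.54 (SE 0.08, adjusted p = 0.000362) and below 1.5-fold. It passed 1.5-fold without regular DMSO replicate 1 (0.65) and without regular MK25 replicate 2 (0.63). VEGFB differed by 0.28 (adjusted p = 0.0194) and NRP1 by -0.17 (adjusted p = 0.0498). With these, 7 of the 9 passed the adjusted p alone, where 12.2% of all genes did. NRP1 missed it without any 1 of the 4 libraries (0.0541 to 0.24), and VEGFB without DMSO replicate 2 (0.181) or MK25 replicate 1 (0.139). VEGFC at 0.10 (95% confidence interval -0.13 to 0.33) and PGF at -0.03 (-0.35 to 0.28) did not pass the test. The share of all reads taken by the 9 factors was 0.0557% and 0.0554% with DMSO in regular culture and 0.0726% and 0.0731% with MK25, and STC2 exceeded STC1 per length by a ratio of 2.35 and 1.89 with DMSO and of 1.48 and 1.13 with MK25.

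Whether an inhibitor acted unequally in the cultures was tested as an interaction, called at an adjusted p below 0.05 of any size. For MK25, 6 of the 9 factors had a lower effect in ischemic than in regular culture, where 13.9% of all genes did. The differences of log2 fold changes were -1.21 for STC1 (SE 0.10, adjusted p = 7.05e-07), -1.15 for ANGPTL4 (adjusted p = 8.47e-06) and -1.04 for VEGFA (adjusted p = 8.29e-08). For STC2 it was -0.96 (adjusted p = 2.18e-06), for ADM -0.74 (adjusted p = 0.00029) and for NRP1 -0.43 (adjusted p = 0.000626). For NRP1 the effect of MK25 was -0.17 in regular and -0.60 in ischemic culture, whereas for STC1 it was 1.40 and 0.19, for VEGFA 0.92 and -0.12, for ANGPTL4 0.96 and -0.19, for STC2 0.70 and -0.26 and for ADM 0.54 and -0.20. The same contrast can be read as the ischemic change within each treatment. With MK25 the log2 fold change of ischemic over regular culture was 2.88 for VEGFA, 6.34 for ANGPTL4, 5.35 for ADM, 2.45 for STC1 and 2.34 for STC2, each called, where 8.56% of all genes were called higher, and 0.68 for NRP1, which was below 2-fold.

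For VX745, 2 of the 9 factors had a lower effect in ischemic culture, where 6% of all genes did. The difference was -1.04 for ANGPTL4 (SE 0.13, adjusted p = 0.000181) and -0.45 for VEGFA (SE 0.08, adjusted p = 0.00186). Under quantile normalization the VEGFA difference was -0.24 with an adjusted p of 0.0627. STC1 at -0.32 (adjusted p = 0.0588) was not called, and it was called with the replicate number as a block (adjusted p = 0.0343), after median centring (-0.34, adjusted p = 0.0467) and without regular DMSO replicate 2 (-0.42, adjusted p = 0.0271). With VX745 the ischemic log2 fold change was 6.45 for ANGPTL4, 3.47 for VEGFA, 5.94 for ADM, 3.35 for STC1 and 3.09 for STC2, each called, where 9.28% of all genes were called higher. NRP1 at 0.90 was below 2-fold.

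Related genes were taken from 6 lists, described by counts. Beside the shares given above, 4.35% of all genes were called higher with VX745 and 7.02% with MK25 in ischemic culture. Of 8 VEGF receptors and co-receptors, 6 were listed, and the main endothelial receptor KDR and the VEGFC receptor FLT4 were not. In untreated cells 2 were called lower in ischemic culture, MCAM by a log2 fold change of -1.11 (SE 0.07, adjusted p = 2.17e-08) and NRP2 by -1.02 (SE 0.10, adjusted p = 1.52e-06), with a median of -0.63 over the 6. NRP2, the neuropilin that serves VEGFC, was thus lower where its paralog NRP1 was higher, and it fell below 2-fold without regular replicate 2 (-0.90) or without ischemic replicate 1 (-0.89). With DMSO neither was called, with MCAM at -0.87 (adjusted p = 5.55e-10) and NRP2 at -0.23 (adjusted p = 0.00468), while NRP1 was again called higher. With MK25 in ischemic culture the neuropilins again differed in direction, since NRP2 rose by 0.78 (SE 0.07, adjusted p = 1.37e-07) and NRP1 fell by 0.60 on the log2 scale.

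Of 13 semaphorins, plexins and partners that share the neuropilins, 11 were listed. The plexin PLXNA3 rose in untreated ischemic culture by 1.82 (SE 0.07, adjusted p = 6.21e-10), whereas PLXND1 fell by 1.48 on the log2 scale (adjusted p = 7.76e-09) and SEMA3E was lower by 1.15 (log2 fold change -1.15, adjusted p = 0.00922), a call lost on a log2(CPM + 1) scale (-0.58) and without regular replicate 1 (-0.82). The other 8 were not called, and the median was -0.34. With DMSO PLXNA3 was again called higher (1.17, adjusted p = 2.69e-10), but PLXND1 at -0.83 (adjusted p = 5.82e-08) and SEMA3E at -0.84 (adjusted p = 0.127) were not called. SEMA3A, a repellent ligand of NRP1, was called lower with MK25 in ischemic culture, with a log2 fold change of -0.63 (adjusted p = 3.1e-06), which came to -0.56 without MK25 replicate 1, below 1.5-fold.

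Of 10 genes of adrenomedullin processing and reception, 7 were listed, and the receptor CALCRL and its partner RAMP3 were not. ADM2, the paralog of ADM also called intermedin, rose in untreated ischemic culture by 4.07 (SE 0.24, adjusted p = 1.69e-08), from 15 and 18 reads to 205 and 398. MME, a peptidase that degrades small peptides, rose by 2.55 (adjusted p = 4.72e-07). In the other direction ADM5 fell by 2.17 (adjusted p = 7.45e-07) and RAMP1, a receptor partner, by 1.43 (adjusted p = 1.12e-08) on the log2 scale, and RAMP2 was the third gene called lower. The median of the 7 was 0.20. With DMSO ADM2, MME and ADM5 were called in the same directions, whereas RAMP1 at -0.77 (adjusted p = 8.87e-07) and RAMP2 at -0.74 (adjusted p = 0.000395) did not reach 2-fold. ADM2 was higher with MK25 in regular culture by 1.31 (adjusted p = 0.00189, and 0.0831 in a fit of the compared groups alone). There it had 10 and 15 reads with DMSO and 25 and 28 with MK25.

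Of 12 angiopoietins, angiopoietin-like factors and their receptors, 5 were listed in the untreated experiment and 6 in the inhibitor experiment. ANGPTL2, at group means of 27.3 to 85.1 CPM, was not called in untreated ischemia (-0.93, adjusted p = 1.47e-06). ANGPT4, a TEK ligand, rose by 2.77 (SE 0.39, adjusted p = 3.99e-05) and ANGPTL6 by 2.42 (SE 0.39, adjusted p = 0.000121) in untreated ischemic culture, while ANGPTL1 fell by 1.38 on the log2 scale (adjusted p = 0.000469). ANGPTL6 had 4 and 5 reads in the regular and 30 and 31 in the ischemic libraries. ANGPT4 had 9 and 11 reads in the regular and 40 and 135 in the ischemic libraries. Its log2 fold change was 2.10 without ischemic replicate 1 and 3.43 without ischemic replicate 2. With DMSO ANGPT4 (4.05) and ANGPTL1 (-1.15) were called again and ANGPTL6 (0.74, adjusted p = 0.145) was not. On a log2(CPM + 1) scale ANGPTL6 (0.95) and ANGPTL1 (-0.82) fell below 2-fold. ANGPT1, the main agonist of the receptor TEK, was called higher in ischemic culture with VX745 by 0.67 (adjusted p = 0.00799) and with MK25 by 0.68 (adjusted p = 0.0051), comparisons that share their DMSO libraries, and both calls were lost under quantile normalization (0.47 with each).

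Of 24 other secreted angiogenic growth factors, 19 were listed, 6 of them called higher and 2 lower in untreated ischemic culture, with a median of -0.15. ANG, a ribonuclease that promotes vessel growth, rose by 1.93 (SE 0.21, adjusted p = 4.22e-06) and PDGFB by 1.83 (SE 0.35, adjusted p = 0.000531), whereas FGF5 fell by 2.69 (adjusted p = 1.58e-05) and BMP4 by 1.68 (adjusted p = 6.55e-07) on the log2 scale. PDGFB had 7 and 9 reads in the regular and 24 and 40 in the ischemic libraries, and FGF5 had 53 and 62 against 6 and 7. CCN1 (group means of 79.7 and 222 CPM in regular and ischemic culture) and PDGFC (27.6 and 81.9 CPM) were also called higher. With DMSO all of these genes were called again in the same directions. The PDGFB change with DMSO ran from 0.56 to 2.33 leaving out 1 library at a time. In ischemic culture APLN, the ligand of the apelin receptor, rose with VX745 by 1.85 (SE 0.28, adjusted p = 0.000142) and with MK25 by 1.82 (adjusted p = 6.99e-05), and BMP4 by 0.72 (adjusted p = 0.000386) and 0.92 (adjusted p = 1.8e-05). For both genes the 2 comparisons share their DMSO libraries, where APLN had 14 and 31 reads. Leaving out 1 library at a time, the APLN change ran from 1.44 to 2.26 with VX745 and from 1.41 to 2.22 with MK25. EDN1, the vessel constrictor endothelin, was lower with MK25 by 0.89 (log2 fold change -0.89, SE 0.24, adjusted p = 0.00629), and with VX745 it was not called. FGF5 was called in opposite directions, higher with VX745 by 1.20 (SE 0.24, adjusted p = 0.00148) and lower with MK25 by 0.62 (log2 fold change -0.62, adjusted p = 0.0494). It had 46 and 53 reads with VX745, 17 in each DMSO library and 14 in each MK25 library, and the MK25 call was lost by voom (adjusted p = 0.107), in a fit of the compared groups (0.151), with the replicate block (0.0607), on a log2(CPM + 1) scale (-0.24), with the 1 CPM filter (0.0518) and without any 1 of the 4 libraries (0.0685 to 0.216). Calls were lost for PDGFB in untreated ischemia on a log2(CPM + 1) scale (0.81), for BMP4 with VX745 in ischemic culture on that scale (0.57) and under quantile normalization (0.52), and for EDN1 with MK25 without DMSO replicate 1 (-0.80, adjusted p = 0.0554).

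Of 20 genes grouped as secreted inhibitors of vessel growth, 16 were listed, with 3 called higher and 3 lower in untreated ischemic culture and a median of -0.11. The list and these counts include VASH2, a paralog of VASH1 that is not itself classed as an inhibitor. THBS2, thrombospondin 2, rose by 1.64 (SE 0.09, adjusted p = 8.17e-09) from a high base of 8.43 to 10.07 on the log2 scale, MMRN2 by 1.37 (adjusted p = 6.24e-07) and the collagen chain COL4A3 by 1.89 (adjusted p = 0.000219, and 0.97 on a log2(CPM + 1) scale, below 2-fold), while VASH2, a vasohibin, fell by 2.29 (SE 0.27, adjusted p = 9.24e-06). Its paralog aside, THBS1, thrombospondin 1, was called lower, from a group mean of 10.80 in regular to 9.61 in ischemic culture. With DMSO THBS1 was again called lower, from 10.85 to 9.63, and it was also called lower with MK25 in ischemic culture. In untreated cells COL4A3 had 11 reads in each regular library and 40 and 46 in the ischemic libraries. With VX745 in ischemic culture TIMP3, which can block VEGFA binding to KDR, fell by 0.90 (SE 0.06, adjusted p = 3.93e-08), and VASH1 rose by 0.76 (adjusted p = 1.57e-05) and VASH2 by 1.05 (adjusted p = 0.00118). With MK25 VASH1 rose by 0.75 (adjusted p = 6.3e-06) and VASH2 by 0.90 (adjusted p = 0.00209), and THBS2 fell by 0.65 (adjusted p = 7.19e-06). SERPINF1, a secreted inhibitor of vessel growth also called PEDF, was higher with VX745 by 0.92 (adjusted p = 0.0151) and with MK25 by 0.99 (adjusted p = 0.00662), and both calls were lost on a log2(CPM + 1) scale (0.49 and 0.53) and without DMSO replicate 1 (0.63 and 0.70), the former also under quantile normalization (0.66) and without VX745 replicate 1 (0.76). With MK25 the call of VASH2 was lost on a log2(CPM + 1) scale (0.57) and that of THBS2 under quantile normalization (-0.38). The VX745 and MK25 comparisons of VASH1, VASH2 and SERPINF1 share their DMSO libraries.

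The genes whose pattern was most like that of each factor were named by Pearson's r over the 12 libraries of the inhibitor experiment, among the 10053 genes whose mean over those libraries was 3 or more on the log2 scale. The 12 libraries fall into regular and ischemic culture, so r mostly reflects that difference and is given as a description. BHLHE40, a transcription factor, and the hexokinase HK1 came closest to VEGFA, each with r = 0.999. For ANGPTL4 they were SLAMF9, NFE2L1 and TRIB3 (each r = 0.998), and TRIB3, a stress-induced pseudokinase, was also among the nearest of ADM, with KCTD15 and HOXB9. STC1 was closest to BEND5 (r = 0.999) and the cyclin CCNG2, and STC2 to the phosphofructokinase PFKP (r = 0.998), the mitochondrial protease LONP1 and KCTD15. The nearest to NRP1 were E2F7 (r = 0.995), AKAP12 and MAP1B. VEGFB was nearest to PGPEP1 (r = 0.983), PGF to RAD9A (r = 0.966) and VEGFC to IL31RA (r = 0.852), so VEGFC was the factor with the least close neighbour. Among the factors themselves, VEGFA, ANGPTL4, ADM, STC1 and STC2 had r of 0.977 to 0.998 with each other. With these, NRP1 had 0.851 to 0.921 and VEGFB 0.879 to 0.915, PGF ran against them at -0.854 to -0.903, and VEGFC lay between -0.04 and 0.03.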

How the data were processed

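LN229 mRNA was sequenced in 16 libraries of 8 groups. Per the submitters' processing notes and the study's methods, reads were aligned to GRCh38 with HISAT2 in Galaxy and handled with edgeR. The deposited tables hold log2 normalized CPM, 1 per experiment, with an offset that the authors added before taking logs; the authors' filter on low genes was not given in the sources used here. Counts recovered from the low values were whole (within 0.05) for 100% of values, which gave the depth. Unmapped columns numbered 0.

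Each table was fitted whole with limma 3.58.1 (R 4.3.3), using a variance trend, all groups of an experiment in 1 fit, and Benjamini-Hochberg adjustment in each of 11 comparisons over the whole table. Confidence intervals are limma's. The fit was tested on simulated data. Alternatives were other scalings, a pseudocount of 1 CPM, voom on recovered reads, a filter at 1 CPM, other fold thresholds, and leaving out each library. Levels per length used the MANE transcript and recovered reads.

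The members and lists were chosen with earlier results of these data known. Named beside the 9 factors were, per list, at most 4 genes called in untreated ischemia and at most 4 called with an inhibitor in ischemic culture, largest change first, and 3 nearest genes per factor. RAMP2, the third adrenomedullin list gene called lower, and THBS1, CCN1, CCN2, LIF, PDGFC and ANGPTL2 were named outside this rule, after their values were seen.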

Additional observations from a re-analysis of the deposited data

Results flagged for a closer look

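The effect of an inhibitor differed between regular and ischemic culture, by limma's interaction term with adjustment over all genes, for 8 pairs of factor and inhibitor. With MK25 the difference, ischemic minus regular, was -1.21 for STC1, -1.15 for ANGPTL4, -1.04 for VEGFA, -0.96 for STC2, -0.74 for ADM and -0.43 for NRP1 on the log2 scale. Leaving out 1 library at a time, these ran from -1.33 to -1.10 for STC1, from -1.25 to -1.04 for ANGPTL4, from -1.07 to -1.01 for VEGFA, from -1.04 to -0.88 for STC2, from -0.85 to -0.63 for ADM and from -0.47 to -0.40 for NRP1. With VX745 the difference was -1.04 for ANGPTL4 and -0.45 for VEGFA, with ranges of -1.15 to -0.93 and -0.50 to -0.40. In the MK25 case the summed level of the glioma and astroglial markers was 4306 to 4408 CPM in regular MK25 libraries beside 4020 to 4352 CPM with DMSO, and 5814 to 5903 CPM in ischemic MK25 libraries beside 7116 to 7134 CPM with DMSO, with SOX2 called higher and VIM and CD44 lower in that interaction. In the VX745 case the sum was 4096 to 4318 CPM in regular and 6382 to 6392 CPM in ischemic VX745 libraries, and NES was called higher. VIM, at 2160 to 5561 CPM over the inhibitor experiment, led these sums, whereas SOX2 was at 11.9 to 67.1 CPM, so the sums say little of the smaller markers. The part of these markers in either result was not tested.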

How the results depend on the processing

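Having 2 libraries per group limits every value above, the replicates are of 1 cell line, and ANGPTL4 in regular culture rests on 12 to 75 reads per library. The number of factors called did not move by more than 1.5 times under no variance trend, median centring, log2(CPM + 1), voom, the 1 CPM filter or a fit of the compared groups alone. Without a fold threshold it was 8 for ischemia with VX745, 6 for VX745 in ischemic culture, 5 for MK25 in ischemic culture, 7 for MK25 in regular culture and 6 for MK25 against VX745. At 2-fold it was 0 for VX745 and 0 for MK25 in ischemic culture, 1 for MK25 in regular culture and 0 for MK25 against VX745. These follow from the threshold itself. Under quantile normalization it was 0 for MK25 in ischemic culture and 1 for VX745 by culture, and the cause was not tested. That scaling also lowered the share of called genes that were higher from 82.8% to 62.6% for VX745 in ischemic culture, from 72.6% to 56.4% for MK25 in ischemic culture and from 64.3% to 50% for VX745 in regular culture, and moved the median of all genes by less than 0.1. Leaving out 1 library, MK25 in ischemic culture called 0 to 1 factors and the other comparisons stayed within 1.5 times.

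Uncalled differences near 0 turned sign. Under quantile normalization they were 0.019 for VEGFC in ischemia with DMSO, 0.062 for VEGFB, -0.025 for PGF, 0.11 for STC1 and 0.0026 for STC2 with VX745 in ischemic culture, 0.13 for VEGFA and 0.062 for ADM with MK25 in ischemic culture, and 0.010 for VEGFB and 0.12 for ADM in VX745 by culture. Leaving out 1 library, VEGFC ran from -0.15 to 0.075 in ischemia with DMSO and from -0.16 to 0.061 with MK25 in ischemic culture, VEGFB from -0.089 to 0.056 with VX745 in ischemic culture, and PGF from -0.17 to 0.11 with MK25 in regular culture. With VX745 in regular culture the ranges were -0.036 to 0.11 for VEGFB, -0.034 to 0.12 for VEGFC, -0.011 to 0.21 for ANGPTL4, -0.076 to 0.11 for STC2 and -0.085 to 0.017 for NRP1. In VX745 by culture they were -0.12 to 0.021 for VEGFB and -0.17 to 0.11 for PGF, and in MK25 by culture -0.018 to 0.15 for VEGFB.

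Genes called in VX745 by culture numbered 1653, and 594 without a variance trend, 1026 under quantile normalization, 601 without ischemic VX745 replicate 1, and 739 to 891 without ischemic DMSO replicate 1, ischemic VX745 replicate 2, regular VX745 replicate 1 or regular DMSO replicate 2. For VX745 in regular culture they numbered 14, with 143 without regular DMSO replicate 1 and 5 to 8 without any other library of that contrast, without a variance trend, on log2(CPM + 1), by voom or in a fit of the compared groups. For MK25 in regular culture they numbered 349, and 546 without that same library. On log2(CPM + 1), VX745 in ischemic culture called 471 genes in place of 737.

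Replicate numbers were shared by all groups, and the values do not settle whether they pair the libraries. The deviations of same-numbered libraries correlated at 0.271 for the 1 pair of groups in the untreated experiment. Over 15 pairs of groups in the inhibitor experiment the correlations lay between -0.27 and 0.33, 4 of them over 0.1. With the replicate number as a block, the number of factors called was 7 for untreated ischemia, 6 for ischemia with DMSO and 4 for MK25 in regular culture, as without it, and 3 in place of 2 for VX745 by culture, where STC1 was added (-0.32, adjusted p = 0.0343). Levels per length have another scale and give no comparable value.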

Other observations

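The genes called higher in untreated ischemic culture can be set against the inhibitor lists without sharing a library, over 13475 genes in both tables. MK25 in regular culture raised 258 of these genes and lowered 77, and 146 of the 258, or 56.6%, were among the 1499 raised in untreated ischemia, which is 9.74% of that list and includes VEGFA, ANGPTL4, STC1 and STC2. Of all common genes, 1.91% were raised by MK25 in regular culture, the value to set beside the 9.74%. Of the 77 lowered, 9, or 11.7%, were among the 1499. VX745 in ischemic culture lowered 123 of the common genes, and 59, or 48%, were among the 1499, ANGPTL4 included. It raised 560, of which 48, or 8.57%, were among the 1499. MK25 in ischemic culture lowered 357, of which 104, or 29.1%, were among the 1499, NRP1 included. It raised 895, of which 120, or 13.4%, were among the 1499. Each of these shares of an inhibitor list stands beside 11.3%, the share of all genes tested that were called higher in untreated ischemia. As shares of the 1499, VX745 in ischemic culture lowered 3.94%, beside 0.913% of common genes, and raised 3.2%, beside 4.16%. MK25 in ischemic culture lowered 6.94%, beside 2.65% of common genes, and raised 8.01%, beside 6.64%.

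The make-up of the VEGF ligands was also measured with the inhibitors, with no test. Per length, VEGFA made up 62.7% ± 0.79 (SD, n = 2) of the summed VEGF ligand level with VX745 and 63.9% ± 1.5 with MK25 in ischemic culture, beside 70.7% ± 1.03 with DMSO. In regular culture it made up 16.9% ± 0.91 with VX745, 25.9% ± 1.5 with MK25 and 18.0% ± 1.2 with DMSO. VEGFB made up most of the rest in every group.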
